A study of Bos taurus with 32 samples.

Results

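The morula stage of bovine embryos cultured with FGF2, LIF and IGF1 was compared with the 9-16 cell stage of embryos cultured with the same 3 cytokines (the mix is written FLI). The libraries were taken by the stage and treatment in their labels: 4 of FLI morulae, replicates 2, 4, 6 and 7, and 4 of FLI 9-16 cell embryos, replicates 10, 11, 12 and 13, which are 8 of the 32 libraries of the series. Each library was made from the RNA of a pool of 15 whole embryos that had been produced and grown in vitro, and all 8 groups of embryos had the cytokines or their absence as the sole labelled treatment. FLI embryos at the 4-6 cell and blastocyst stages and control embryos, grown without the mix, at the morula and 9-16 cell stages were used only to place this step. The labels used here give no cytokine dose, time of addition, sire or culture day, and do not tell separate cultures from repeated pools of a culture; p-values therefore reflect only how much these pools varied. The FLI morula and FLI 9-16 cell libraries share no replicate numbers, and the labels name no collection or batch. An effect of stage can therefore not be told apart from one of collection. The series asks how the added cytokines alter the transcriptome of the embryo before implantation.

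Between these stages the bovine embryo compacts: blastomeres flatten against each other through E-cadherin, build tight junctions and a contractile actin cortex, and outer cells gain an apical surface and start to transport ions and water. In cattle the major activation of the embryonic genome falls around the 9-16 cell stage, and RNA stored by the oocyte is deadenylated and degraded over the same period. FGF2 binds FGF receptors and activates ERK, LIF binds a receptor of LIFR and IL6ST chains that activates STAT3, and IGF1 binds IGF1R, so the receptors and the early targets of these pathways are read alongside the compaction genes.

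FLI morula libraries held 26.5, 11.6, 55.5 and 114 M reads and FLI 9-16 cell libraries 14.1, 11.8, 30.5 and 41.7 M. Of 16057 genes listed in the deposited tables of both stages, 14074 had a mean of at least 1 CPM (reads per M reads of the library, after joint TMM scaling) over the 8 libraries and were tested with limma on log2(CPM + 1), a scale that understates changes of low genes. At a Benjamini-Hochberg adjusted p under 0.05, 10913 genes (77.5%) differed, 5352 (38.0%) higher and 5561 (39.5%) lower in morulae, with a median log2 difference over all genes of -0.03 and quartiles of -1.48 and 1.39. Of the genes called, 1100 were higher and 1324 lower by a log2 difference of at least 3 in size, and 10192 genes (72.4%) had no overlap between the groups. Pearson correlations of log2(CPM + 1) across genes were 0.925 to 0.988 among FLI morula libraries, 0.967 to 0.989 among FLI 9-16 cell libraries and 0.458 to 0.555 between the stages. A count of called genes is therefore read against 38.0% higher and 39.5% lower, and a list is described by its counts and median. In pools of whole embryos, fewer cells of a type and less RNA per cell cannot be told apart.

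FLI morula replicate 7, the deepest library, stood apart from the other 3 by gene length. It held the lowest FLI morula value for 69.6% of 2828 genes with at least 4000 exonic bases, against 19.9% of 3242 genes under 1500 bases. Over all genes tested it held the lowest value for 36.1% and the highest for 28.6%. Where leaving out this or another library ended a call, turned a direction or moved the log2 difference of a named gene between the stages by over 1.5 times in fold, that is stated beside the result. Without it 40.5% of genes were higher and 39.3% lower.

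Adhesion genes moved in both directions, with E-cadherin among those that rose. CDH1 encodes E-cadherin, the adhesion molecule of compaction, and lies on chromosome 18 at 36046665 to 36119368 (ARS-UCD1.2, plus strand). It had 1354, 1337, 1059 and 829 CPM in FLI morulae, against 304, 199, 247 and 205 CPM in FLI 9-16 cell embryos. Every morula library lay above every 9-16 cell library (log2 difference 2.25, SE 0.22, adjusted p = 9.3e-07). Of the 22 adherens junction and compaction genes, all listed and tested, 10 rose, 6 fell and 6 were not called, with a median of 0.69. Over all genes 38.0% rose and 39.5% fell. MSN, which encodes moesin, a linker of membrane to cortical actin, rose (log2 difference 4.55, SE 0.24, adjusted p = 2.9e-09), as did the immunoglobulin-type adhesion gene NECTIN4 (log2 difference 3.80, SE 0.21, adjusted p = 4.9e-09). Its relative NECTIN3 fell to 9.83, 10.2, 8.79 and 5.36 CPM in FLI morulae, against 75.3, 69.7, 77.9 and 104 CPM in FLI 9-16 cell embryos, and the alpha-catenin gene CTNNA2 fell as well (log2 difference -3.42). Without FLI morula replicate 7 the list counted 13 higher and 6 lower.

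Tight junction and desmosome genes had a median of 2.11: of 25, 24 were listed at both stages and 23 tested, 13 rose and 8 fell. Claudins seal the space between outer cells. CLDN6, on chromosome 25 at 2433098 to 2436408 (minus strand), had 2489, 2177, 2626 and 3354 CPM in FLI morulae, against 13.8, 7.71, 19.7 and 11.2 CPM in FLI 9-16 cell embryos. It was among the 15 largest rises of all genes that met the naming rule (log2 difference 7.61, SE 0.26, adjusted p = 2e-10). CLDN4 had 163, 133, 93.1 and 278 CPM in FLI morulae, against 0.257, 0.0787, 0.814 and 0.758 CPM in FLI 9-16 cell embryos (log2 difference 6.75, SE 0.32, adjusted p = 1.5e-09). The groups did not overlap for either claudin, and replicate 7 was the highest morula library for both. CLDN7 rose less uniformly, with 82.3, 118, 69.4 and 13.6 CPM in FLI morulae and 6.68, 6.22, 6.94 and 4.62 CPM in FLI 9-16 cell embryos, replicate 7 being low (log2 difference 3.002, 3.69 without that library). The desmosomal cadherin gene DSG2 rose (log2 difference 5.28, SE 0.27, adjusted p = 2.5e-09), and so did TJP3, which encodes the scaffold ZO-3 (log2 difference 4.42, SE 0.32, adjusted p = 5.1e-08). TJP1, which encodes the scaffold ZO-1, was not called: it had 68.8, 75.5, 44.7 and 14.6 CPM in FLI morulae, against 69.9, 65.7, 78.3 and 70.9 CPM in FLI 9-16 cell embryos. Its groups overlapped (log2 difference -0.71, SE 0.43, adjusted p = 0.150; log2 difference -0.16 without replicate 7). The summed level of the list was 4214 to 5739 CPM in FLI morulae and 648.8 to 885 CPM in FLI 9-16 cell embryos.

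Polarity genes split in direction, with 7 of 20 tested rising, 9 falling and a median of -0.20 (23 genes in the list, 21 listed at both stages). Genes in general split in a similar way, 38.0% higher and 39.5% lower. The atypical protein kinase C genes, whose products mark the apical surface, both rose. PRKCI had 201, 187, 153 and 188 CPM in FLI morulae, against 7.97, 11.2, 11.6 and 13.8 CPM in FLI 9-16 cell embryos, with no overlap (log2 difference 3.93, SE 0.22, adjusted p = 5.2e-09), and PRKCZ had a log2 difference of 2.45. Their partner PARD6B went the other way, with 45.9, 42.5, 31.7 and 49.1 CPM in FLI morulae and 173, 144, 199 and 124 CPM in FLI 9-16 cell embryos (log2 difference -1.89, SE 0.23, adjusted p = 5.6e-06). The polarity kinase genes STK11 and MARK2 fell, with log2 differences of -3.06 and -2.91. MARK2 depended on the library, since replicate 7 had 17.7 CPM and the other morula libraries 61.7 to 96.7 CPM.

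Of 30 genes of the contractile cortex, 29 were tested, 19 rose and 5 fell, with a median of 1.94. The tropomyosin gene TPM4 had 1239, 1209.7, 1185 and 1289.6 CPM in FLI morulae, against 8.03, 5.35, 9.35 and 16.5 CPM in FLI 9-16 cell embryos (log2 difference 6.93, SE 0.27, adjusted p = 3.8e-10). The myosin light chain genes MYL6 and MYL9 rose by log2 differences of 5.54 and 6.36, and ANXA2, which encodes an actin-binding annexin, by 6.55. MYH9, the heavy chain of non-muscle myosin II, had 1304, 1221, 548 and 162 CPM in FLI morulae, against 129, 105, 141 and 99.5 CPM in FLI 9-16 cell embryos. All 4 morula libraries were above the 9-16 cell libraries, but replicate 7 lay well under the other 3 (log2 difference 2.37, SE 0.58, adjusted p = 0.00383; log2 difference 3.06 without it). The summed level of the list was 29043 to 40407 CPM in FLI morulae and 7420.1 to 8661 CPM in FLI 9-16 cell embryos. Without replicate 7, 23 members rose and 4 fell.

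Keratins of simple epithelia form intermediate filaments of the later trophectoderm. KRT8 had 528, 549, 163 and 1118 CPM in FLI morulae, against 4.18, 3.85, 5.47 and 4.79 CPM in FLI 9-16 cell embryos (log2 difference 6.44, SE 0.47, adjusted p = 2.7e-07; log2 difference 7.09 without FLI morula replicate 6). Its filament partner KRT18, which like KRT8 lies on chromosome 5, at 26998530 to 27002595 (minus strand), had 399, 543, 214 and 719 CPM in FLI morulae, against 3.73, 2.20, 1.63 and 0.930 CPM in FLI 9-16 cell embryos (log2 difference 7.18, SE 0.37, adjusted p = 5.4e-09). For both, replicate 7 was the highest and replicate 6 the lowest morula library, and the stages did not overlap. KRT7 also rose (log2 difference 4.96), and 3 of the 4 keratins tested were called higher, none lower.

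**Figure D1:**
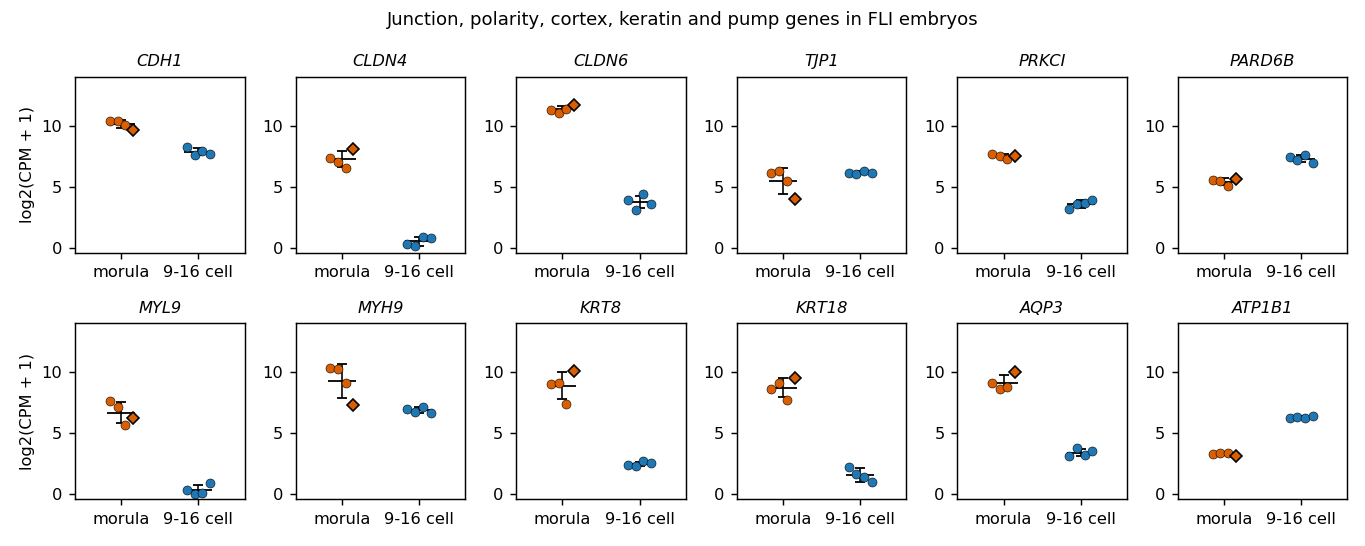
Levels of 12 adhesion, polarity, cortex, keratin and pump genes as log2(CPM + 1) in each FLI morula (orange, left) and FLI 9-16 cell (blue, right) library, with the mean and SD of 4 libraries; diamonds are FLI morula replicate 7. CLDN4, CLDN6, KRT8 and KRT18 stand far higher in morulae, PARD6B and ATP1B1 lower, and TJP1 overlaps between the stages.

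Ion pumps and water channels, which fill the blastocoel later, had 6 of 11 tested members higher and 4 lower (18 in the list, 13 listed at both stages; median 1.08). AQP3, a channel for water and glycerol, had 544, 399, 449 and 1039 CPM in FLI morulae, against 7.58, 12.4, 8.21 and 10.6 CPM in FLI 9-16 cell embryos (log2 difference 5.75, SE 0.30, adjusted p = 2.7e-09). The beta subunits of the sodium pump moved in opposite directions. ATP1B3 rose to 661, 718, 962 and 962 CPM in FLI morulae, against 71.2, 53.97, 88.1 and 50.5 CPM in FLI 9-16 cell embryos (log2 difference 3.64, SE 0.23, adjusted p = 1.6e-08). ATP1B1 fell to 8.87, 9.62, 9.42 and 7.94 CPM in FLI morulae, against 74.2, 80.2, 73.96 and 83.1 CPM in FLI 9-16 cell embryos (log2 difference -2.99, SE 0.19, adjusted p = 1.8e-08). Neither gene's groups overlapped. The sodium-proton exchanger gene SLC9A2 fell as well (log2 difference -3.34).

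The Hippo pathway, through which contact and polarity reach the nucleus, had 8 of 23 members higher and 12 lower, with a median of -0.97. Among all genes 38.0% were higher and 39.5% lower. The transcriptional end of the pathway split. TEAD4, the DNA-binding partner of YAP1 in trophectoderm formation of the mouse, had 184, 172, 152 and 226 CPM in FLI morulae, against 1.86, 1.18, 1.73 and 0.269 CPM in FLI 9-16 cell embryos (log2 difference 6.41, SE 0.28, adjusted p = 7.2e-10). The coactivator gene WWTR1 rose by 4.71 and the angiomotin gene AMOTL2 by 3.71. YAP1 fell, with 68.6, 56.9, 34.8 and 25.3 CPM in FLI morulae and 81.9, 73.01, 112 and 80.00 CPM in FLI 9-16 cell embryos (log2 difference -0.97, SE 0.30, adjusted p = 0.00978; log2 difference -0.68 without replicate 7). VGLL4, a competitor of YAP1 for TEAD proteins, fell (log2 difference -4.03, SE 0.27, adjusted p = 2.4e-08), while CCN2, a target of YAP1, rose (log2 difference 2.27, SE 0.33, adjusted p = 3.6e-05).

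Regulators of the trophectoderm, the outer lineage, did not move as a group: 10 of 19 tested rose and 6 fell, with a median of 0.76 (20 in the list, all listed). Of all genes 38.0% rose and 39.5% fell. CDX2, the trophectoderm factor, was not called and its groups overlapped. It had 29.6, 33.7, 25.5 and 16.9 CPM in FLI morulae and 29.8, 35.8, 29.96 and 23.5 CPM in FLI 9-16 cell embryos (log2 difference -0.19, SE 0.25, adjusted p = 0.491; log2 difference 0.04 without replicate 7). TFAP2C, with 377, 317, 289.5 and 448 CPM in FLI morulae and 535, 368, 581 and 535 CPM in FLI 9-16 cell embryos, was not called either (log2 difference -0.49, SE 0.21, adjusted p = 0.0512), although it was called lower when replicate 7 was left out (log2 difference -0.56, adjusted p = 0.0156), when FLI 9-16 cell replicate 11 was left out (-0.64, adjusted p = 0.0204) and with scaling by library size alone (-0.62, adjusted p = 0.0207). GATA3 rose (log2 difference 0.76, SE 0.24, adjusted p = 0.0109) while GATA2 fell to 115, 137, 57.9 and 16.1 CPM in FLI morulae, against 568, 587, 564 and 488 CPM in FLI 9-16 cell embryos (log2 difference -3.12, SE 0.56, adjusted p = 0.00056; log2 difference -2.45 without replicate 7). The epithelial factor gene GRHL1 rose by 3.64. EOMES, a T-box factor of the mouse trophectoderm, fell to 0.239, 0, 0.532 and 0.428 CPM in FLI morulae, against 113, 91.3, 107 and 144 CPM in FLI 9-16 cell embryos (log2 difference -6.46, SE 0.23, adjusted p = 2.2e-10). ELF3, an epithelial ETS factor gene, and PPARG, a nuclear receptor gene, also fell, by 4.59 and 4.31 on the log2 scale.

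Pluripotency factors rose in 13 of 21 members and fell in 6, with a median of 1.11 (27 in the list, 21 listed at both stages). POU5F1, which encodes OCT4, had 976, 830.3, 1069 and 1399.8 CPM in FLI morulae, against 53.1, 63.8, 76.6 and 62.1 CPM in FLI 9-16 cell embryos, with no overlap (log2 difference 4.03, SE 0.21, adjusted p = 3.2e-09). ESRRB, an orphan nuclear receptor of the naive state in mouse, had 832, 777, 609 and 693 CPM in FLI morulae, against 24.6, 9.52, 25.8 and 8.56 CPM in FLI 9-16 cell embryos (log2 difference 5.48, SE 0.34, adjusted p = 1.8e-08). The homeobox gene OTX2 rose by 3.85 and ZFP42, which encodes the zinc finger protein REX1, by 4.03. NANOG was low at both stages, with 14.04, 15.4, 19.4 and 17.7 CPM in FLI morulae and 11.4, 5.35, 6.84 and 9.54 CPM in FLI 9-16 cell embryos, and rose (log2 difference 0.96, SE 0.25, adjusted p = 0.00335). KLF4 fell (log2 difference -1.55, SE 0.44, adjusted p = 0.00750), with 100.3 CPM in replicate 7 and 334 to 482 CPM in the other morula libraries. SOX2 was not listed at both stages and is not analysed here.

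Hypoblast regulators rose in 9 of 13 tested members and fell in 2, with a median of 1.98 (16 in the list, 14 listed at both stages). GATA6, the factor that opposes NANOG in the inner cell mass, had 682, 619.9, 368 and 628 CPM in FLI morulae, against 27.96, 32.7, 44.9 and 25.7 CPM in FLI 9-16 cell embryos (log2 difference 4.08, SE 0.25, adjusted p = 1.3e-08). SOX17, which acts after it in the mouse, rose to 22.2, 21.8, 17.3 and 19.4 CPM in FLI morulae, against 3.73, 2.52, 4.46 and 3.16 CPM in FLI 9-16 cell embryos (log2 difference 2.26, SE 0.22, adjusted p = 7.4e-07). LAMB1, a laminin chain of the basement membrane, rose by 3.80 and the WNT cofactor gene RSPO3 by 3.57.

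Transcripts stored by the oocyte took a far smaller share of reads in FLI morulae than in FLI 9-16 cell embryos. CPM is a share of a library, so loss of these RNAs and dilution by other RNA cannot be told apart. Of 43 such genes, 38 were listed at both stages and 37 tested; 35 fell, none rose and 2 were not called (DDX4 and PLAT, named after their values were seen), with a median of -6.50 against -0.03 for all genes. Their summed level was 335, 434, 447 and 580.1 CPM in FLI morulae, against 21662, 24408, 24064 and 29100.0 CPM in FLI 9-16 cell embryos. BTG4, the adaptor that brings the deadenylase to maternal RNA, lies on chromosome 15 at 21787553 to 21802341 (minus strand). It had 3.02, 7.46, 9.09 and 14.1 CPM in FLI morulae, against 2479.6, 2408, 2149 and 4913 CPM in FLI 9-16 cell embryos (log2 difference -8.38, SE 0.39, adjusted p = 4.5e-09). The oocyte growth factor genes behaved alike: BMP15 had 1.43, 1.71, 2.70 and 15.8 CPM in FLI morulae, against 1295, 1223, 1332 and 1755 CPM in FLI 9-16 cell embryos (log2 difference -8.27, SE 0.54, adjusted p = 2e-07; log2 difference -8.87 without replicate 7), and GDF9 fell by 7.05 on the log2 scale. For BMP15 replicate 7 was the highest morula library, and it held the highest FLI morula value for 20 of the 37 genes. Over all genes tested it held the highest value for 28.6%. Apart from DDX4 and PLAT, every gene of the list named here had groups that did not overlap.

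Among the 15 largest falls, 12 were members of that list, and they include ACCSL, with 6.05, 4.40, 3.80 and 12.5 CPM in FLI morulae and 2642, 2842, 3092 and 3287 CPM in FLI 9-16 cell embryos (log2 difference -8.71, SE 0.29, adjusted p = 1.7e-10). KPNA7, an importin of the oocyte and early embryo, fell by 8.32 on the log2 scale and H1-8, the oocyte linker histone, fell by 7.89. Among kinases of meiotic arrest, MOS fell by 7.32 and WEE2 fell by 7.498. NLRP9 and NLRP5, of a gene family with oocyte members, fell by 7.46 and 6.35, KHDC3L, of the subcortical maternal complex, by 7.36, and OOSP2, an oocyte-secreted protein gene, by 7.34. ZAR1L and CPEB1, whose products bind maternal RNA, fell by 7.59 and 7.56 (CPEB1 log2 difference -8.20 without replicate 7). Of the 3 largest falls outside the list, NLRP8 fell by 8.06, RGS16, a regulator of G protein signalling, by 7.82 and PHYHIPL by 7.20. ZP3, a zona pellucida gene, had 6.72, 9.53, 5.13 and 3.76 CPM in FLI morulae and 136, 222, 167 and 87.6 CPM in FLI 9-16 cell embryos.

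**Figure D2:**
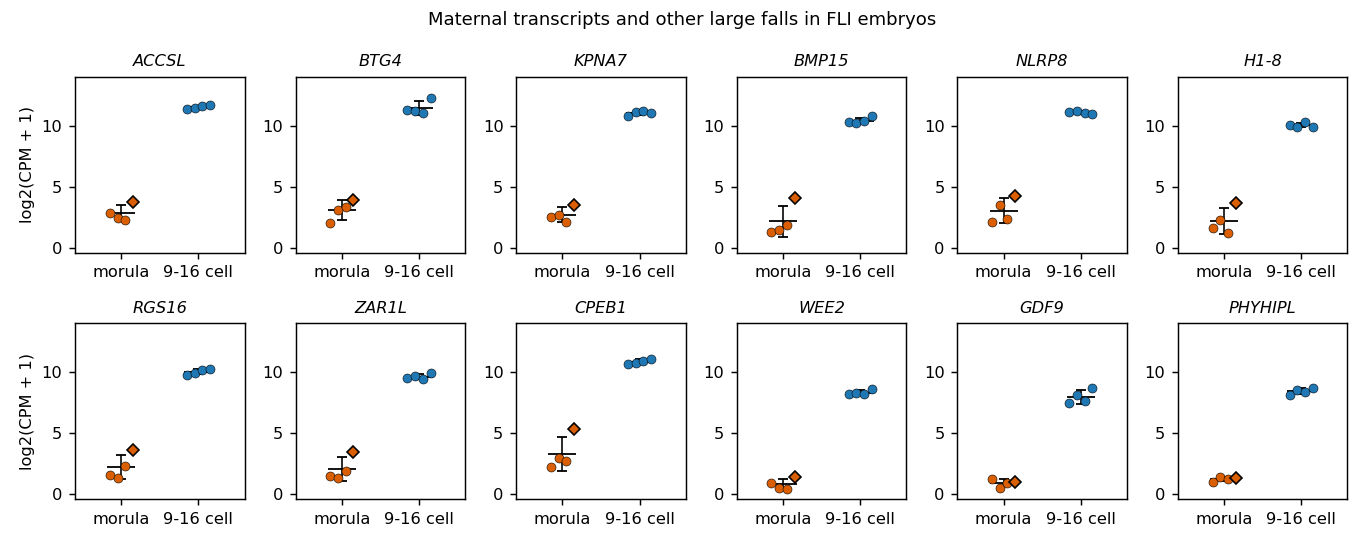
Levels of 12 genes with large falls as log2(CPM + 1) in each FLI morula (orange, left) and FLI 9-16 cell (blue, right) library, with the mean and SD of 4 libraries; diamonds are FLI morula replicate 7. The stages do not overlap in any panel, and replicate 7 is the highest morula library for most of the genes, BMP15 and CPEB1 among them.

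Genes whose products remove maternal RNA or control its poly(A) tail fell more often than they rose. Of 36 such genes, 35 were tested, 22 fell and 5 rose, with a median of -1.19. CNOT6L, a deadenylase subunit, had 20.5, 25.3, 23.4 and 8.72 CPM in FLI morulae, against 304, 267, 249 and 566 CPM in FLI 9-16 cell embryos (log2 difference -4.10, SE 0.35, adjusted p = 3.3e-07), and TENT4A, a poly(A) polymerase gene, fell by 4.11 on the log2 scale. BTG4 and CPEB1 stand in this list too.

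Genes of embryonic genome activation had split by the morula stage, with 6 of 13 tested members higher and 6 lower (24 in the list, 13 listed at both stages; median 1.21). All genes tested split too, 38.0% higher and 39.5% lower. KLF17, a marker of the bovine activation wave, had 70.2, 72.6, 82.5 and 141 CPM in FLI morulae, against 714, 459.5, 839 and 563 CPM in FLI 9-16 cell embryos (log2 difference -2.82, SE 0.27, adjusted p = 6e-07). ZSCAN4, another transcript of that wave, fell (log2 difference -1.49, SE 0.27, adjusted p = 0.00022). The heat shock gene HSPA1A fell by 2.59 and SP1, a general activator gene, by 2.90 on the log2 scale. KLF5 rose to 604, 569, 383 and 341 CPM in FLI morulae, against 71.5, 46.9, 107 and 65.6 CPM in FLI 9-16 cell embryos (log2 difference 2.71, SE 0.28, adjusted p = 1.3e-06). DUXA was not listed at both stages and is not analysed here.

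Genes of mitochondrial respiration rose together. All 74 tested nuclear genes of oxidative phosphorylation rose (76 in the list, 74 listed at both stages), with a median of 4.12. Their summed level was 25345, 25508, 40551 and 36881 CPM in FLI morulae, against 2329, 2531, 2463 and 2332 CPM in FLI 9-16 cell embryos. UQCRC1, a core subunit of complex III, had 869, 739, 701 and 1327 CPM in FLI morulae, against 6.94, 6.53, 5.57 and 3.52 CPM in FLI 9-16 cell embryos (log2 difference 7.08, SE 0.26, adjusted p = 2.5e-10). CYC1, of the same complex, rose by 6.25, UQCR11 by 6.84 and NDUFC2, a complex I subunit gene, by 6.22. CYCS, which encodes cytochrome c, had 334, 347, 826 and 397 CPM in FLI morulae, against 21.02, 19.98, 21.7 and 59.6 CPM in FLI 9-16 cell embryos (log2 difference 3.97, SE 0.39, adjusted p = 1.8e-06). Replicate 6 was far above the other morula libraries for CYCS.

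Genes encoded by the mitochondrial genome rose less, with 11 of 13 higher, none lower and a median of 1.41. COX3, a subunit of cytochrome c oxidase, had 3875, 4422, 6199.7 and 3545 CPM in FLI morulae, against 1029, 1275, 1075 and 1114 CPM in FLI 9-16 cell embryos (log2 difference 1.98, SE 0.20, adjusted p = 1.5e-06). ATP8, COX2 and ND2, of the ATP synthase, cytochrome c oxidase and complex I, rose by 2.04, 1.95 and 1.69. COX1 had 2212, 3551, 2384 and 1253 CPM in FLI morulae, against 1045, 1613, 1213 and 1563 CPM in FLI 9-16 cell embryos, so that the groups overlapped (log2 difference 0.72, SE 0.29, adjusted p = 0.0349). ND4 had 605 CPM in replicate 7 and 2820.0 to 3781 CPM in the other morula libraries (log2 difference 1.33, SE 0.50, adjusted p = 0.0328; log2 difference 1.98 without replicate 7). Replicate 7 held the lowest FLI morula value for 11 of the 13 genes, and without it all 13 rose, with a median of 1.97. Over all genes tested it held the lowest value for 36.1%. The call of COX1 was lost without FLI morula replicate 4, without FLI 9-16 cell replicate 10 or 12 and with scaling by library size alone (adjusted p up to 0.115), and that of ND4 without FLI morula replicate 4 and without FLI 9-16 cell replicate 10, 11 or 12 (adjusted p up to 0.0846).

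Cytosolic ribosomal protein genes rose in 76 of 77 tested members, with a median of 3.22 (78 in the list, all listed). RPL3 had 1245, 1192, 1299 and 1320.0 CPM in FLI morulae, against 69.02, 48.9, 65.4 and 27.9 CPM in FLI 9-16 cell embryos (log2 difference 4.63, SE 0.26, adjusted p = 5.9e-09). RPL22, RPL18, RPL37A and RPL14 rose by 5.99, 5.75, 4.81 and 4.68, and RPS6, a phosphorylation target in growth signalling, by 2.08. The member not called was FAU, named after its values were seen. These genes have near-identical processed copies in the genome, between which the authors' counting could divide reads. The genes that build ribosomes rose by less: 21 of 34 were higher and 2 lower, with a median of 1.02. NCL, which encodes nucleolin, had 1002, 947, 1451 and 1089 CPM in FLI morulae, against 227, 206, 312 and 246 CPM in FLI 9-16 cell embryos (log2 difference 2.17, SE 0.21, adjusted p = 6.8e-07), and the nucleolar genes FBL, NOP16 and WDR12 rose by 2.17, 2.75 and 2.42.

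Gene length moved with these results. The median log2 difference was 0.86 for 1493 genes under 1000 exonic bases and -0.86 for 900 genes of at least 6000 bases, and the share called higher was 53.4% and 19.4% in these bins. The median length was 845 bases for the ribosomal protein list and 1095 for nuclear oxidative phosphorylation, against 5238 for extracellular matrix and integrins. The mean log2(CPM + 1) of short genes (under 1500 bases) minus that of long genes (at least 4000 bases) was -0.40, -0.37, 0.26 and 0.65 in FLI morulae, against -1.10, -1.02, -1.11 and -1.22 in FLI 9-16 cell embryos. The part of gene length in the list results was not tested.

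**Figure D3:**
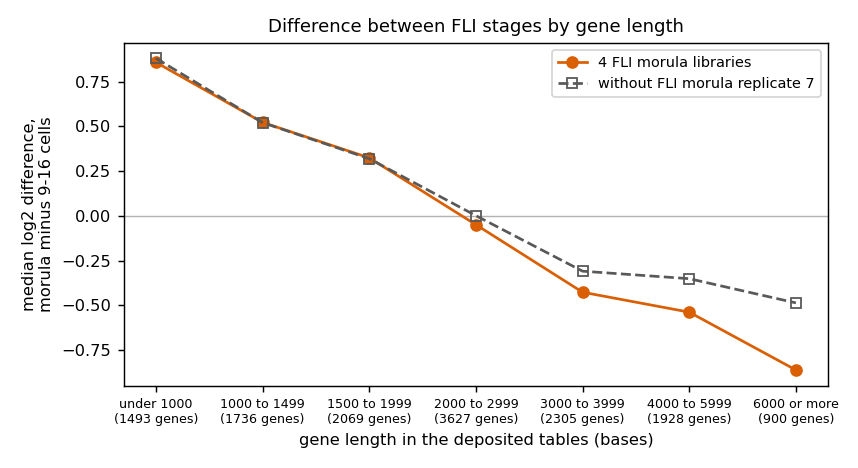
Median log2 difference of FLI morulae over FLI 9-16 cell embryos (vertical axis) for genes binned by exonic length in bases (horizontal axis), with all 4 FLI morula libraries (filled) and without FLI morula replicate 7 (open). The median falls from 0.86 in the shortest bin to -0.86 in the longest, and to -0.49 there without replicate 7.

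Carbon metabolism changed in parts. Of 29 genes of glycolysis and glucose transport, 27 were tested, 16 rose and 5 fell, with a median of 1.93. The glucose transporter gene SLC2A1 had 299, 379.9, 215 and 465 CPM in FLI morulae, against 86.9, 106, 153 and 63.9 CPM in FLI 9-16 cell embryos (log2 difference 1.74, SE 0.30, adjusted p = 0.00014). PGK1, PFKL and PFKFB4, enzymes of glycolysis and its control, rose by 4.15, 3.88 and 3.73, and PDHA1, which links glycolysis to the citric acid cycle, by 4.32. LDHA, which reduces pyruvate to lactate, fell to 35.5, 51.1, 39.8 and 37.3 CPM in FLI morulae, against 275, 289.5, 235 and 497 CPM in FLI 9-16 cell embryos (log2 difference -2.91, SE 0.25, adjusted p = 2.6e-07).

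Genes of fatty acid synthesis, oxidation and storage rose in 21 of 28 tested members and fell in 5, with a median of 1.74 (29 in the list). The lipid droplet gene PLIN3 had 215, 210.2, 138 and 316 CPM in FLI morulae, against 1.86, 3.85, 1.53 and 2.79 CPM in FLI 9-16 cell embryos (log2 difference 5.96, SE 0.29, adjusted p = 1.8e-09). The desaturase genes FADS2 and SCD rose by 4.68 and 3.13 and ACSL4, an acyl-CoA synthetase gene, by 3.44, while PPARD, a lipid-sensing receptor gene, fell by 3.41 on the log2 scale. Without FLI 9-16 cell replicate 13 the log2 difference of SCD was 3.77, and without FLI morula replicate 7 that of PPARD was -2.67. Cholesterol synthesis split, with 9 of 23 higher and 7 lower, against 38.0% higher and 39.5% lower among all genes. DHCR7 and SC5D, of its last steps, rose by 3.09 and 2.78, whereas HMGCS1, at its entry, CYP51A1 and the regulator gene INSIG1 fell by 2.31, 3.03 and 3.28.

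Amino acid transporters moved both ways: 8 of 18 tested rose and 6 fell (22 in the list, 19 listed at both stages). So did genes in general, with 38.0% higher and 39.5% lower. SLC7A5, a carrier of large neutral amino acids, had 471, 392, 241 and 257 CPM in FLI morulae, against 5.53, 2.60, 5.44 and 3.28 CPM in FLI 9-16 cell embryos (log2 difference 6.02, SE 0.29, adjusted p = 1.5e-09), and SLC7A8 rose by 5.33. The arginine and lysine carriers SLC7A2 and SLC7A3 fell. SLC7A3 had 0.119, 0.360, 0.0394 and 0.507 CPM in FLI morulae, against 49.7, 77.3, 54.4 and 71.02 CPM in FLI 9-16 cell embryos (log2 difference -5.67, SE 0.23, adjusted p = 4.5e-10), and SLC7A2 fell by 5.42 on the log2 scale. Antioxidant genes rose in 17 of 26 tested members and fell in 6 (median 1.80). GPX1 and GPX4, glutathione peroxidase genes, and GSTP1, a glutathione transferase gene, rose by 5.12, 1.77 and 5.46, and the metallothionein genes MT2A and MT1E, which have close paralogs, by 6.11 and 4.93. In the unfolded protein and heat shock list 16 of 28 rose and 7 fell. HSPB1, HSPD1, HSPA8 and HSPA5, chaperone genes, rose by 5.61, 3.58, 1.597 and 1.35, while DNAJB1 and DDIT3, which are induced by heat and by endoplasmic reticulum stress, fell by 3.46 and 3.33.

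Receptors and ligands of the added cytokines had 6 of 21 tested members higher and 8 lower, with a median of 0.00 (27 in the list, 22 listed at both stages). Among all genes 38.0% were higher and 39.5% lower. FGFR4 carried the largest rise of the list. It lies on chromosome 7 at 38575410 to 38586456 (plus strand) and had 599.5, 409.7, 336 and 248 CPM in FLI morulae, against 2.31, 0.236, 0.716 and 0.0979 CPM in FLI 9-16 cell embryos (log2 difference 7.83, SE 0.36, adjusted p = 1.9e-09). FGFR2 rose slightly, with 13.5, 14.8, 13.8 and 8.89 CPM in FLI morulae and 5.91, 8.65, 9.05 and 9.37 CPM in FLI 9-16 cell embryos (log2 difference 0.57, SE 0.24, adjusted p = 0.0418), and its call was lost with edgeR (adjusted p = 0.0532), with scaling by library size alone, without FLI morula replicate 4 and without FLI 9-16 cell replicate 10, 11 or 12 (adjusted p up to 0.140). FGFR1 was not called (log2 difference 0.09, SE 0.28, adjusted p = 0.767), and its sign turned with scaling by library size alone (-0.02), without FLI morula replicate 4 (-0.03) and without FLI 9-16 cell replicate 13 (-0.05). FGF2 RNA in the embryos fell to 0.199, 0.449, 0.631 and 0.358 CPM in FLI morulae, against 9.13, 11.2, 11.8 and 17.96 CPM in FLI 9-16 cell embryos (log2 difference -3.23, SE 0.23, adjusted p = 5.1e-08). The transcript is read here, not the added protein. FGF2 RNA averaged 19.1 CPM at 4-6 cells and 11.8 CPM at 9-16 cells after a scaling over all 16 FLI libraries. Whether it was stored by the oocyte or transcribed by the embryo was not tested.

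RNA of both LIF receptor chains was present. IL6ST, the signalling chain shared by the family, had 43.6, 39.4, 35.9 and 27.3 CPM in FLI morulae, against 3.53, 3.46, 2.21 and 7.61 CPM in FLI 9-16 cell embryos (log2 difference 2.93, SE 0.30, adjusted p = 1.2e-06). LIFR had 9.90, 9.08, 7.67 and 4.78 CPM in FLI morulae, against 11.95, 13.8, 9.31 and 18.00 CPM in FLI 9-16 cell embryos. Its groups overlapped and its call was lost without replicate 7 (log2 difference -0.69, SE 0.27, adjusted p = 0.0310; log2 difference -0.46 and adjusted p = 0.0988 without it), and likewise without FLI morula replicate 6, without FLI 9-16 cell replicate 10, 11 or 13, and with TMM without mitochondrially encoded and ribosomal protein genes. IGF1R, the receptor of IGF1, fell to 45.03, 45.4, 19.8 and 6.35 CPM in FLI morulae, against 132, 116, 150.2 and 129 CPM in FLI 9-16 cell embryos (log2 difference -2.47, SE 0.52, adjusted p = 0.00127; log2 difference -1.86 without replicate 7). IGFBP2, which encodes an IGF-binding protein, rose to 1840.5, 1365, 869.5 and 111 CPM in FLI morulae, against 20.8, 23.9, 12.4 and 15.5 CPM in FLI 9-16 cell embryos (log2 difference 5.24, SE 0.76, adjusted p = 0.00012; log2 difference 6.17 without replicate 7). Replicate 7 was low for both genes.

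Genes read out of ERK activity had 8 of 24 tested members higher and 11 lower (26 in the list, median -0.05), close to genes in general. FOS, an immediate early gene, had 69.6, 35.7, 43.8 and 77.3 CPM in FLI morulae, against 3.98, 1.26, 2.38 and 2.74 CPM in FLI 9-16 cell embryos (log2 difference 3.99, SE 0.31, adjusted p = 9.5e-08). SPRY4, a feedback inhibitor, rose (log2 difference 2.32, SE 0.29, adjusted p = 8.3e-06) and ETV4, an ETS factor gene, rose by 1.41. DUSP6, the ERK phosphatase gene, fell to 9.03, 5.84, 11.1 and 15.1 CPM in FLI morulae, against 40.1, 34.7, 59.01 and 36.99 CPM in FLI 9-16 cell embryos (log2 difference -1.99, SE 0.28, adjusted p = 2.9e-05). The other Sprouty and ETS genes of the list that are named, SPRY1, ETV1 and ETV5, fell by 3.29, 3.34 and 1.99, and MYC fell by 3.64. The readouts of the ERK pathway did not share a direction.

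LIF-STAT3 response genes had 7 of 19 tested members higher and 9 lower (20 in the list, median -0.56). Among all genes 38.0% were higher and 39.5% lower. SOCS3, the feedback inhibitor of LIF signalling, was the most uneven: it had 97.2, 26.2, 25.9 and 4.97 CPM in FLI morulae, against 40.3, 36.3, 39.7 and 31.3 CPM in FLI 9-16 cell embryos. Replicate 2 lay above and replicate 7 far below every 9-16 cell library, and the gene was not called (log2 difference -0.56, SE 0.68, adjusted p = 0.467), although it was without replicate 2 (log2 difference -1.07, adjusted p = 0.0228). Its direction turned without replicate 7 (log2 difference 0.18, adjusted p = 0.660), with edgeR (0.06, adjusted p = 0.931) and with DESeq2 (0.05, adjusted p = 0.940). CEBPD and TFCP2L1, transcription factor genes, rose by 4.02 and 3.63. PIM3, a kinase gene, fell by 4.04 and the homeobox gene GBX2 by 2.93.

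Cell cycle genes moved both ways, with 10 of 39 cyclin and mitotic genes higher and 14 lower. Of all genes 38.0% were higher and 39.5% lower. CCND2, a G1 cyclin gene, had 179, 147, 122 and 148 CPM in FLI morulae, against 3.15, 5.27, 3.94 and 4.16 CPM in FLI 9-16 cell embryos (log2 difference 4.87, SE 0.22, adjusted p = 9.8e-10), and its partner CDK4 rose by 3.35. AURKA, a kinase of the spindle poles, fell to 212, 193, 301 and 401 CPM in FLI morulae, against 2995, 3603, 2977 and 3612 CPM in FLI 9-16 cell embryos (log2 difference -3.63, SE 0.24, adjusted p = 2.1e-08). CCNB1 and CCNE1, the mitotic and S phase cyclins, fell by 1.35 and 1.37. Of 34 replication genes 21 rose and 8 fell, with a median of 0.68. The helicase gene MCM2 rose by 1.38, GINS1, of the same helicase complex, by 3.44, the clamp loader gene RFC2 by 2.40 and the ribonucleotide reductase genes RRM1 and RRM2 by 2.86 and 2.56. PCNA, the sliding clamp, was not called (log2 difference -0.32, SE 0.20, adjusted p = 0.163).

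Chromatin genes also moved both ways. Of 31 DNA methylation and histone enzymes tested (33 in the list), 13 rose and 12 fell. These counts are close to the shares of all genes, 38.0% higher and 39.5% lower. TET3, the dioxygenase stored in the oocyte, fell to 2.67, 5.84, 2.39 and 3.73 CPM in FLI morulae, against 345, 322, 397 and 331 CPM in FLI 9-16 cell embryos (log2 difference -6.28, SE 0.25, adjusted p = 3.8e-10). Its relative TET1 rose to 194, 222, 236 and 139 CPM in FLI morulae, against 21.5, 14.7, 19.2 and 25.5 CPM in FLI 9-16 cell embryos (log2 difference 3.22, SE 0.24, adjusted p = 7e-08). UHRF1, which guides maintenance methylation, fell to 33.1, 36.2, 25.5 and 54.6 CPM in FLI morulae, against 1449, 1702, 2139 and 1608 CPM in FLI 9-16 cell embryos (log2 difference -5.53, SE 0.24, adjusted p = 7.5e-10). SUV39H2, a methyltransferase of histone H3, fell by 3.12. DNMT3B, a de novo methyltransferase gene, fell by 1.46 but lost its call with edgeR (adjusted p = 0.0859), without FLI morula replicate 6 and without FLI 9-16 cell replicate 10, 11 or 12 (adjusted p up to 0.0699). Among histone variants and linker histones, the linker histone gene H1-10 rose by 3.67 and H2AZ2 by 1.51, H1-4 fell by 2.06 and H2AZ1 was not called (log2 difference -0.35, SE 0.23, adjusted p = 0.178). In that list 4 of 9 tested rose and 2 fell.

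Extracellular matrix and integrin genes rose in 11 of 23 tested members and fell in 4 (25 in the list, median 1.02; 14 and 4 without replicate 7). FN1, which encodes fibronectin, had 3827, 3363, 1494 and 485 CPM in FLI morulae, against 11.2, 10.9, 15.3 and 10.7 CPM in FLI 9-16 cell embryos (log2 difference 7.08, SE 0.57, adjusted p = 1.5e-06; log2 difference 7.74 without replicate 7). ITGA5, a chain of the fibronectin receptor, rose by 6.43. SPARC, which encodes a matrix-binding glycoprotein, had 1111, 1019, 1185 and 2111 CPM in FLI morulae, against 3.53, 5.35, 6.03 and 56.9 CPM in FLI 9-16 cell embryos (log2 difference 6.96, SE 0.71, adjusted p = 8.4e-06; log2 difference 7.79 without FLI 9-16 cell replicate 13). COL5A1, a fibrillar collagen gene, fell by 4.66. Replicate 7 held the lowest FLI morula value for 16 of the 23 genes, FN1 among them, and the part of this library in the spread was not tested. That share was 36.1% over all genes tested and 69.6% over all genes with at least 4000 exonic bases.

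Interferon-related genes were few at this step: of 23, 14 were listed at both stages and 9 tested, 4 rose and 2 fell. IRF1 and IRF9, interferon regulatory factor genes, rose by 0.97 and 0.87, while IFIT3, an interferon-induced gene, fell by 2.71. IFNT2, a gene for the pregnancy recognition signal, was not listed at both stages and is not analysed here. In the apoptosis list, 7 of 16 tested members rose and 6 fell (24 in the list). This count and that of the interferon list are read against 38.0% higher and 39.5% lower among all genes. BAK1, BAD and BAX, which promote apoptosis, rose by 4.11, 4.23 and 1.30, and the survival gene MCL1 by 0.57, while GADD45A fell by 2.94. The call of MCL1 was lost without FLI 9-16 cell replicate 11 (adjusted p = 0.0548) and with scaling by library size alone (adjusted p = 0.0556).

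The 15 largest rises joined several of these groups with zinc and gap junction genes. CSTB, an inhibitor of cysteine proteases on chromosome 1 at 143819489 to 143823793 (minus strand), had 924, 768, 1113 and 600.1 CPM in FLI morulae, against 0.257, 0.629, 1.89 and 1.27 CPM in FLI 9-16 cell embryos (log2 difference 8.76, SE 0.29, adjusted p = 1.7e-10). BRB, a secreted ribonuclease gene of the pancreatic family, had 387, 302, 481 and 305 CPM in FLI morulae, against 0.450, 0, 0.0977 and 0.0489 CPM in FLI 9-16 cell embryos (log2 difference 8.32, SE 0.23, adjusted p = 1.2e-10). SLC39A4, a zinc importer gene, rose by 7.88 and SLC30A2, a zinc exporter gene, by 7.30. The gap junction gene GJB5, which encodes a connexin, rose by 7.12. PPP1R14A, an inhibitor of myosin phosphatase, rose by 7.84, SLC7A4, of the cationic amino acid carrier family, by 7.72, PEPD, a dipeptidase gene, by 7.54 and S100A14, a calcium-binding protein gene, by 7.32. Others were FGFR4, CLDN6, KRT18, UQCRC1 and FN1.

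Placed among all 4 stages, the step divided the named genes by when they reach their highest level. Values here are means over 4 FLI libraries a stage after a scaling over all 16 FLI libraries, so they differ slightly from those above. KLF17 averaged 0.137 CPM at 4-6 cells, 607 at 9-16 cells, 85.1 at morula and 15.9 at blastocyst, so that it peaked before this step. BTG4 averaged 4727, 2809.8, 7.82 and 22.4 CPM over the same stages, and its largest fall came within this step. GATA6 was highest at the morula, with 0.762, 31.0, 535 and 139 CPM, and so was CSTB, with 2.76, 0.950, 794 and 204 CPM. CDH1 averaged 312, 226, 1068 and 803 CPM, and its morula and blastocyst ranges overlapped.

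Other genes rose at this step and went on rising. KRT8 averaged 6.78, 4.31, 547 and 33199 CPM, KRT18 1.49, 2.01, 436 and 8229 CPM, and POU5F1 70.6, 60.3, 995 and 2178 CPM at 4-6 cells, 9-16 cells, morula and blastocyst. SLC2A1 averaged 21.9, 96.6, 316 and 1135 CPM over these stages. LDHA was lowest at the morula, with 432, 305, 38.1 and 627 CPM. CDX2 averaged 27.1, 28.1, 24.7 and 52.7 CPM, and its first 3 stages overlapped.

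**Figure D4:**
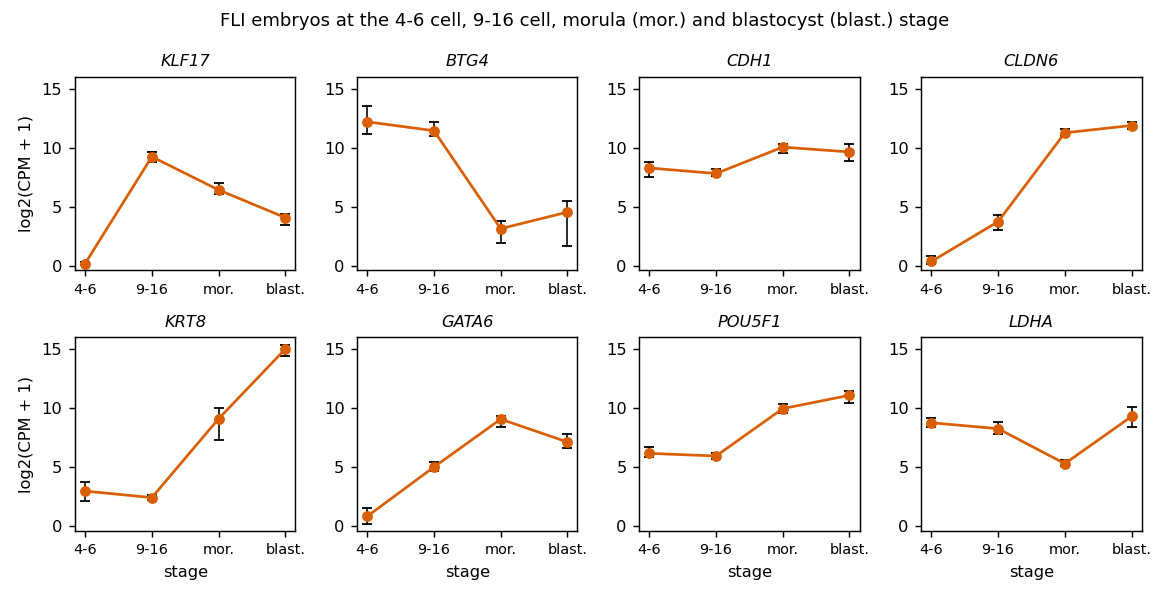
Mean log2(CPM + 1) of 8 genes in FLI embryos of the 4 stages, 4-6 cells, 9-16 cells, morula and blastocyst; bars run from the lowest to the highest of 4 libraries. KLF17 is highest at 9-16 cells, GATA6 at the morula and KRT8 at the blastocyst, BTG4 falls between 9-16 cells and morula, and LDHA is lowest at the morula.

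The step was set beside the same step in control embryos, with 3 control morula libraries, since control morula replicate 4 held 83409 reads and was left out. Of 14099 genes tested for a difference between the FLI and the control step with limma, 0 (0%) were called at an adjusted p under 0.05, 1044 had an unadjusted p under 0.05, and the smallest adjusted p was 0.60. edgeR's quasi-likelihood test also called 0, with 752 at an unadjusted p under 0.05. Without control morula replicate 7, 61 genes were called, 5 with a larger and 56 with a smaller log2 difference in FLI embryos. Across 13700 genes tested in both steps the log2 differences had a Pearson r of 0.967, and 98.3% of the genes called in the FLI step had the same sign in the control step; genes are not independent replicates. A call that is absent in 15 libraries does not show that the steps are equal, and the intervals below say what size remained possible.

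For compaction genes the difference of steps, FLI minus control, was 0.60 (95% interval -0.51 to 1.72) for CDH1, -0.11 (95% interval -1.15 to 0.92) for CLDN6, 0.05 (95% interval -1.43 to 1.54) for KRT8 and 0.39 (95% interval -0.93 to 1.72) for TJP1. PRKCI was at 0.84 (95% interval 0.11 to 1.57) and NECTIN4 at 1.02 (95% interval 0.27 to 1.76), both with an unadjusted interval above 0. Among receptors, FGFR4 was at 1.58 (95% interval 0.32 to 2.83) and FGFR2 at 1.39 (95% interval 0.66 to 2.11): FGFR2 had a log2 difference of 0.57 in the FLI step and -0.73 in the control step. The call of FGFR2 in the FLI step was lost under several alternatives, as given above. GATA6 was at 1.06 (95% interval -0.29 to 2.41), SOCS3 at 1.82 (95% interval -0.22 to 3.87) and DUSP6 at 0.74 (95% interval -0.18 to 1.67). The 5 genes with the smallest p were A2M, a protease inhibitor gene, at 2.23 (95% interval 1.22 to 3.25); SLC44A4, a choline-family transporter gene, at 1.70 (95% interval 0.94 to 2.46); CTSL, a lysosomal protease gene, at -1.47 (95% interval -2.18 to -0.76); FXYD4, of the sodium pump regulator family, at -2.17 (95% interval -3.23 to -1.11); and S100A5, a calcium-binding protein gene, at -2.13 (95% interval -3.08 to -1.19). None of the 5 passed the adjusted threshold (adjusted p = 0.60 for each).

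A2M had 57.00, 15.7, 17.4 and 13.9 CPM in FLI morulae, against 0.129, 0, 0.0977 and 0.122 CPM in FLI 9-16 cell embryos, and S100A5 had 102, 128, 204 and 171 CPM in FLI morulae, against 0.257, 0.236, 0.195 and 0.196 CPM in FLI 9-16 cell embryos. In 7 lists the median difference of steps was at least 0.5 in size. It was -1.20 for histone variants and linker histones, -1.12 for nuclear oxidative phosphorylation and -0.92 for cytosolic ribosomal proteins. Mitochondrially encoded genes stood at -0.74 and antioxidant enzymes at -0.52. Extracellular matrix and integrin genes stood at 0.61 and interferon genes at 0.60. A median of differences need not equal the gap between the step medians, and the control fit had its own filter on low values. Histone variants and linker histones had a median log2 difference of -0.35 in the FLI step and 0.95 in the control step, with 2 of 9 members above 0 in the difference. Nuclear oxidative phosphorylation had a median log2 difference of 4.12 in the FLI step and 5.17 in the control step, with 6 of 74 members above 0 in the difference. Cytosolic ribosomal proteins had 3.22 in the FLI step and 4.21 in the control step, with 1 of 77 above 0, and the mitochondrially encoded genes 1.41 in the FLI step and 2.07 in the control step, with 0 of 13 above 0. Antioxidant enzymes had 1.80 in the FLI step and 2.08 in the control step, with 7 of 26 above 0. In the other direction, extracellular matrix and integrin genes had 1.02 in the FLI step and 0.07 in the control step, with 19 of 23 above 0, and interferon genes had 0.37 in the FLI step and -1.04 in the control step, with all 9 above 0. Over all genes the median difference of steps was 0.00. Members of a list share the same libraries, and the part of length or of any library in these medians was not tested.

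**Figure D5:**
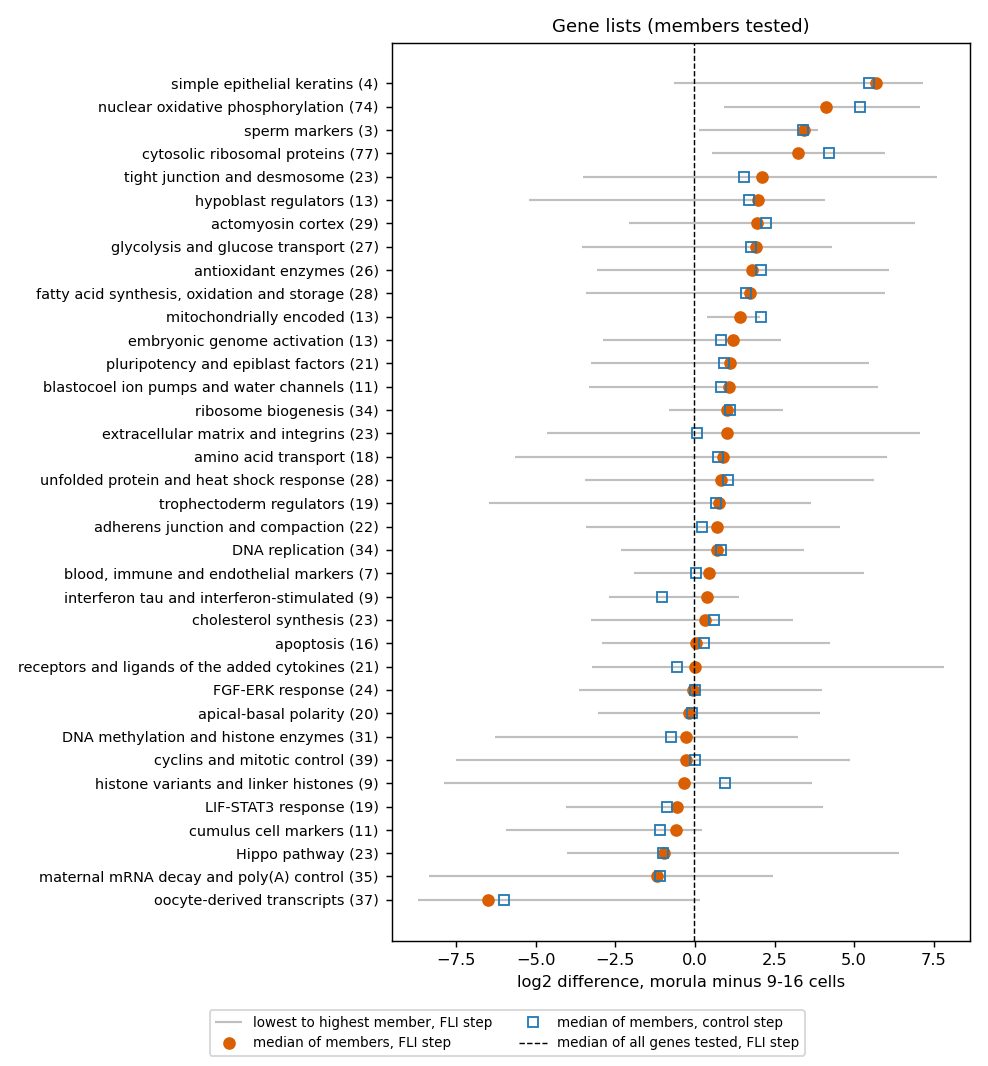
Median log2 difference, morula minus 9-16 cells, of each gene list in FLI embryos (filled circles) and control embryos (open squares); grey lines run from the lowest to the highest member in FLI embryos and the dashed line is the median of all genes tested. Oocyte-derived transcripts lie at -6.50 and nuclear oxidative phosphorylation at 4.12 in the FLI step, and oxidative phosphorylation and ribosomal proteins lie lower in the FLI than in the control step.

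Markers of other cells that a pool could carry were read in the same libraries. Of 11 cumulus cell markers tested (18 in the list) none rose and 6 fell, among them HAS2, which fell by 5.95, STAR, which fell by 3.93, VCAN, which fell by 2.98, and NR5A1, which fell by 2.03, and their sum was 26.4 to 40.6 CPM in FLI morulae and 288 to 401 CPM in FLI 9-16 cell embryos. CYP19A1, a defining granulosa gene, had 54, 34, 120 and 97 reads in FLI morulae and 31, 4, 81 and 79 in FLI 9-16 cell embryos. Per M reads of each library, without TMM, these were 2.04, 2.92, 2.16 and 0.85 in FLI morulae. In FLI 9-16 cell embryos they were 2.19, 0.34, 2.66 and 1.90, so the groups overlapped. Of 3 sperm markers tested, 2 rose: TNP2, a sperm nuclear protein gene, had 12.2, 6.56, 28.01 and 22.4 CPM in FLI morulae, against 0.386, 0, 0.0651 and 0.0245 CPM in FLI 9-16 cell embryos, and SPATA18 rose by 3.42. PRM1, the protamine gene, had 3, 0, 36 and 26 reads in FLI morulae and 0, 0, 2 and 0 in FLI 9-16 cell embryos. Per M reads these were 0.113, 0, 0.649 and 0.228 in FLI morulae and 0, 0, 0.0656 and 0 in FLI 9-16 cell embryos. TNP1, the other defining sperm marker, had 26, 6, 156 and 101 reads in FLI morulae. In FLI 9-16 cell embryos it had 2, 0, 6 and 0 reads. Per M reads TNP1 stood at 0.983, 0.515, 2.81 and 0.885 in FLI morulae. It stood at 0.141, 0, 0.197 and 0 in FLI 9-16 cell embryos. Of 7 blood, immune and endothelial markers tested, 2 rose and 3 fell. The counts of these marker lists are read against 38.0% higher and 39.5% lower among all genes. PECAM1, an endothelial adhesion gene, had 57.8, 52.2, 26.97 and 43.6 CPM in FLI morulae, against 0.193, 0, 0.0651 and 0.269 CPM in FLI 9-16 cell embryos, while HBB, a globin gene, had 10, 5, 24 and 79 reads in FLI morulae and 6, 0, 6 and 3 in FLI 9-16 cell embryos. For HBB these were 0.378, 0.429, 0.433 and 0.692 per M reads in FLI morulae and 0.424, 0, 0.197 and 0.072 in FLI 9-16 cell embryos. HBA rose by 2.08, and CD3E and VWF fell by 1.32 and 1.91. The part of such cells in the results was not tested.

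Measures of the libraries moved with the stage. Genes detected at 1 CPM or more numbered 13098 ± 182 in FLI morulae and 13930.0 ± 66.2 in FLI 9-16 cell embryos (SD, n = 4 each; exact permutation test over 70 arrangements, two-sided p = 0.0286, the smallest this design allows, adjusted p = 0.0667 over 7 measures). These counts cover all genes listed at each stage, and the stages list different genes. The difference was -831.75 genes, and -495.5 over genes listed at both stages. Reads from the mitochondrial genome made up 3.03%, 3.95%, 3.40% and 1.39% in FLI morulae, against 1.09%, 1.23%, 0.985% and 1.21% in FLI 9-16 cell embryos, with the same p. No library of either stage overlapped the other for these measures, and replicate 7 was the lowest morula library for both. The 100 most abundant genes held 22.8% ± 3.65 of FLI morula reads and 21.0% ± 1.58 of FLI 9-16 cell reads (exact permutation p = 0.429). Their part in the gene results was not tested.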

How the data were processed

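Per the labels, RNA came from pools of embryos (PicoPure isolation) and was turned into cDNA with Takara's SMART-Seq v4 chemistry. Per the submitters' processing notes, FastQC, HISAT2, featureCounts and edgeR were used with the build ARS-UCD1.2; their versions, the strand setting and any gene filter were not given in the sources used here, so reads of overlapping and antisense genes could not be told apart. The deposited tables, 1 per stage, hold the authors' signal for each gene and library, in which reads had been divided by a scaled library size, together with gene length and position. The deposited signal was divided by the smallest positive value of its column, which gave whole reads for all values within a tolerance of 0.001. The design had assumed counts; the scaled unit was found when the tables were read. Of 17446 genes listed at morula and 17977 at 9-16 cells, 16057 were joined by gene ID, 2132 of them without a symbol.

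Reads were scaled jointly with TMM (edgeR 4.0.16) and log2(CPM + 1) was tested with limma 3.58.1 (trend and robust options) in R 4.3.3 on genes with a mean of at least 1 CPM; this filter admits genes high at 1 stage only. Calls were made at an adjusted p under 0.05 (Benjamini-Hochberg, across every gene in the fit). edgeR's quasi-likelihood test, limma-voom and DESeq2 1.42.0 on the recovered reads, other scalings, pseudocounts, filters and left-out libraries were alternatives. The difference of steps is an interaction over 15 libraries. For library measures an exact permutation test, two-sided, was used. The fit was tested on simulated data of this comparison, in which most genes were unchanged, whereas 77.5% were called in the real data. There limma called 13.6% of 66 genes changed by a log2 difference of 1 in size. It called 85.1% of 67 genes changed by 2 and 97.0% of 67 genes changed by 3.

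The comparison, the 36 gene lists and the rule for naming genes were chosen with earlier results of these data known. Named were the 15 largest rises and falls, if called, given a symbol, without overlap and averaging at least 10 CPM in a group, a set of key genes, up to 4 called members per list, and the 5 genes with the smallest p in the difference of steps. The defining markers CYP19A1, PRM1, TNP1 and HBB stand outside it and were named after their values were seen. Of 984 list entries, 937 were matched by symbol and 2 by a RefSeq synonym. Some genes that met the rule are not reported here.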

Additional observations from a re-analysis of the deposited data

Results flagged for a closer look

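In 15 of 194 groups of 4 libraries, the highest library stood far from the other 3 by Dixon's criterion at the 95% level. That level means about 1 group in 20 by chance only for normally spread values and with either end counted. CPM values need not be spread so. The groups do not cover every named gene: SPARC at 9-16 cells and A2M at the morula stage are outside them. FLI morula replicate 7 was that library for 6 oocyte-derived genes: BMP15 (15.8 CPM, the others 1.43 to 2.70), ZAR1L (10.05, the others 1.53 to 2.78), CPEB1 (39.3, the others 3.54 to 6.74), KHDC3L (35.0, the others 4.18 to 7.64), OOSP2 (8.04, the others 0.710 to 1.91) and MOS (13.5, the others 0.690 to 2.82). These values remained far under every 9-16 cell value. FLI morula replicate 6 stood apart for CYCS (826 CPM, the others 334 to 397) and RPS6 (764, the others 424 to 481), and FLI morula replicate 2 for CCNE1 (84.8, the others 74.97 to 76.02).

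FLI 9-16 cell replicate 13 stood apart for BTG4 (4913 CPM, the others 2149 to 2480), WEE2 (386, the others 289.9 to 304), CYCS (59.6, the others 20.0 to 21.7), SCD (16.1, the others 0.835 to 3.13) and S100A14 (2.69, the others 0.835 to 1.07). FLI 9-16 cell replicate 12 stood apart for FN1 (15.3 CPM, the others 10.7 to 11.2).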

How the results depend on the processing

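The count of 10913 called genes ranged from 8880.0 to 11618 over all alternatives (edgeR 10762, limma-voom 10789, DESeq2 10912, library size only 10945, 1 library left out 10429 to 11233), with 0 genes called in the opposite direction. Scaling by library size alone set the median of all genes to -0.15 and TMM without mitochondrially encoded and ribosomal protein genes to 0.11, against -0.03. Of 210 named genes 203 were called, and 197 to 204 under the alternatives. Calls that changed were those of TFAP2C, ND4, COX1, FGFR2, LIFR, SOCS3, DNMT3B and MCL1; the cause was not tested. Of the named genes, 3 changed sign under some alternative (SOCS3, CDX2 and FGFR1), none of them called as reported or where the sign changed. Counts of list members, chosen as alternatives after the data were seen, moved by more than 1.5 times for keratins (0 lower, 1 without replicate 7), ribosome biogenesis (2 lower, 1 without replicate 7 or with TMM without mitochondrial and ribosomal genes) and interferon genes (2 lower, 1 with that TMM). The difference of steps gave 0 to 61 calls with 1 library left out, the 61 without control morula replicate 7, and 0 under the other settings run (339 genes at an unadjusted p under 0.05 with control morula replicate 4). With 1 library left out, the difference of morula minus 9-16 cells was -890.83 to -748.83 genes at 1 CPM, 1.48 to 2.33 percentage points of mitochondrial reads, 0.053 to 0.109 points of reads in rows named rRNA and 0.95 to 1.29 for short minus long genes, and these reached an adjusted p of 0.05 without replicate 7.

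FLI morulae and FLI 9-16 cell embryos share no replicate numbers, so no paired analysis of that step was possible. For the difference of steps, a replicate block within stage, with 3 residual degrees of freedom, gave 0 calls and 1114 genes at an unadjusted p under 0.05. Same-numbered FLI and control libraries correlated at 0.286, 0.0776, 0.141 and 0.0611 at 9-16 cells and at -0.451 at the morula stage, where they share only number 7, so the numbers were not taken as pairs. Differently numbered libraries ran from -0.200 to 0.188 at 9-16 cells and from -0.622 to 0.661 at the morula stage. FLI morula replicates 2 and 4 correlated with control morula replicate 7 at 0.661 and 0.538, and FLI morula replicate 6 at -0.503. The part of this pattern in the difference of steps was not tested. A pool of 4 against 4 libraries limits precision for genes near 1 CPM, and intervals cover the spread of these libraries.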

Other observations

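The differences were spread over the genome. Among chromosomes with at least 50 genes tested, the median log2 difference of FLI morulae over FLI 9-16 cell embryos ran from -0.40 on chromosome 4 (446 genes, 33.6% higher and 47.8% lower) to 0.41 on chromosome 29 (394 genes, 43.9% higher and 34.3% lower). The X chromosome had 470 genes tested, a median of 0.30, 44.0% higher and 38.5% lower.

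Genes listed in the table of only 1 stage have no value at the other and were not compared. The morula table alone listed 1389 genes, 251 of them with a mean of at least 1 CPM in FLI morulae and 43 with at least 10 CPM. The highest with a symbol were SLC39A2, a zinc transporter gene (62.8, 66.3, 106 and 123 CPM), GBP4, of the guanylate-binding protein family (58.3, 64.5, 52.1 and 65.4 CPM), GNG11, a G protein subunit gene (45.6, 40.2, 87.1 and 47.0 CPM), and BOK, of the BCL2 family (38.1, 35.9, 31.9 and 44.8 CPM). The 9-16 cell table alone listed 1920 genes, 592 with a mean of at least 1 CPM in FLI 9-16 cell embryos and 81 with at least 10 CPM. They include NKX6-1, a homeobox gene (86.2, 62.6, 109 and 64.1 CPM), DAZL, a germ cell RNA-binding protein gene (64.4, 48.5, 43.9 and 107 CPM), and FRZB, a WNT inhibitor gene (37.1, 37.2, 37.9 and 43.2 CPM). PTPRC, a marker of blood cells that was listed at 9-16 cells alone, had 7, 2, 41 and 12 reads there. These genes were chosen for their level, after it was seen.

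The microRNA gene entry bta-mir-2887-2, a measure added after the data were seen, took 4.64%, 5.98%, 2.69% and 0.00225% of reads in FLI morula replicates 2, 4, 6 and 7, against 4.81%, 7.17%, 4.29% and 4.75% in FLI 9-16 cell embryos (exact permutation p = 0.229, adjusted p = 0.320 over 7 measures). Replicate 7 lacked nearly all of these reads and had the lowest share of reads in rows named rRNA, at 0.00347%, against 0.173%, 0.123% and 0.0593% in replicates 2, 4 and 6.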
